A study of Mus musculus with 17 samples.

Results

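The genes described here encode the enzymes and carriers of fatty acid oxidation in mitochondria and peroxisomes. They were set by a list of 45 gene symbols matched to the mouse Ensembl identifiers of the deposited table, and all 45 were found among its 55487 genes. By compartment, 22 belong to the mitochondrial pathway, 16 to the peroxisomal one and 6 are acyl-CoA thioesterases, and Acsl1 activates fatty acids ahead of both pathways. Of the 45, 44 had enough counts to be tested.

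The kidneys of 17 male mice aged 16 weeks on the BKS background were profiled by 3′ end mRNA sequencing, each animal giving 1 library. The 8 db/m mice are given as HE for Leprdb, read here as heterozygous for the mutant leptin receptor, and the 9 db/db mice as HO, read as homozygous for it. The db/db mouse lacks the long leptin receptor in every cell and becomes obese and diabetic. Groups follow the sample titles, which the library names match, although the separate genotype field contradicts them in each of the 17 cases. Should the field hold instead, higher and lower would swap throughout.

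In the mitochondrion, long-chain fatty acids enter as carnitine esters and are shortened in a cycle of dehydrogenation, hydration, a further dehydrogenation and thiolysis. Peroxisomes shorten very long and branched chains with their own oxidases and hand the products on as carnitine esters. Thioesterases release free fatty acid and CoA from acyl-CoA. The kidney proximal tubule relies on fatty acids for most of its energy, and many of these genes are targets of the nuclear receptor PPARα.

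Between db/db and db/m kidneys, 35 of the 44 tested genes did not pass the test, while the enzymes that passed it changed by up to 2.36-fold. The mitochondrial thiolase Acaa2, the peroxisomal oxidase Acox2 and the thioesterases Acot1, Acot2 and Acot3 rose in db/db. The mitochondrial dehydrogenase Acad10, the peroxisomal carnitine transferase Crot, the peroxisomal enoyl-CoA reductase Pecr and the thioesterase Acot12 fell. In all, 9 of 44 tested members passed and are referred to as called (20.5%), 5 higher and 4 lower, in edgeR's quasi-likelihood test (threshold 0.05 after Benjamini-Hochberg adjustment over 12131 genes), against 7.39% called over all genes (3.91% higher and 3.49% lower). The median log2 fold change of the members was 0.04, beside 0.00 over all tested genes, and 23 of the 44 values were positive. Called shares differed in size between the compartments: 2 of 21 mitochondrial members, 3 of 16 peroxisomal members and 4 of 6 thioesterases, with median log2 fold changes of 0.04, -0.06 and 0.42. Without db/m replicate 4, 1 of the 6 thioesterases and 3 of the 16 peroxisomal members were called, so the order of the shares turned without that library. The members and the lists below were chosen with earlier results of these data known. Their called shares beside that of all genes are therefore descriptions only. The compartment lists are small, and no difference between the compartments was tested.

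**Figure D1:**
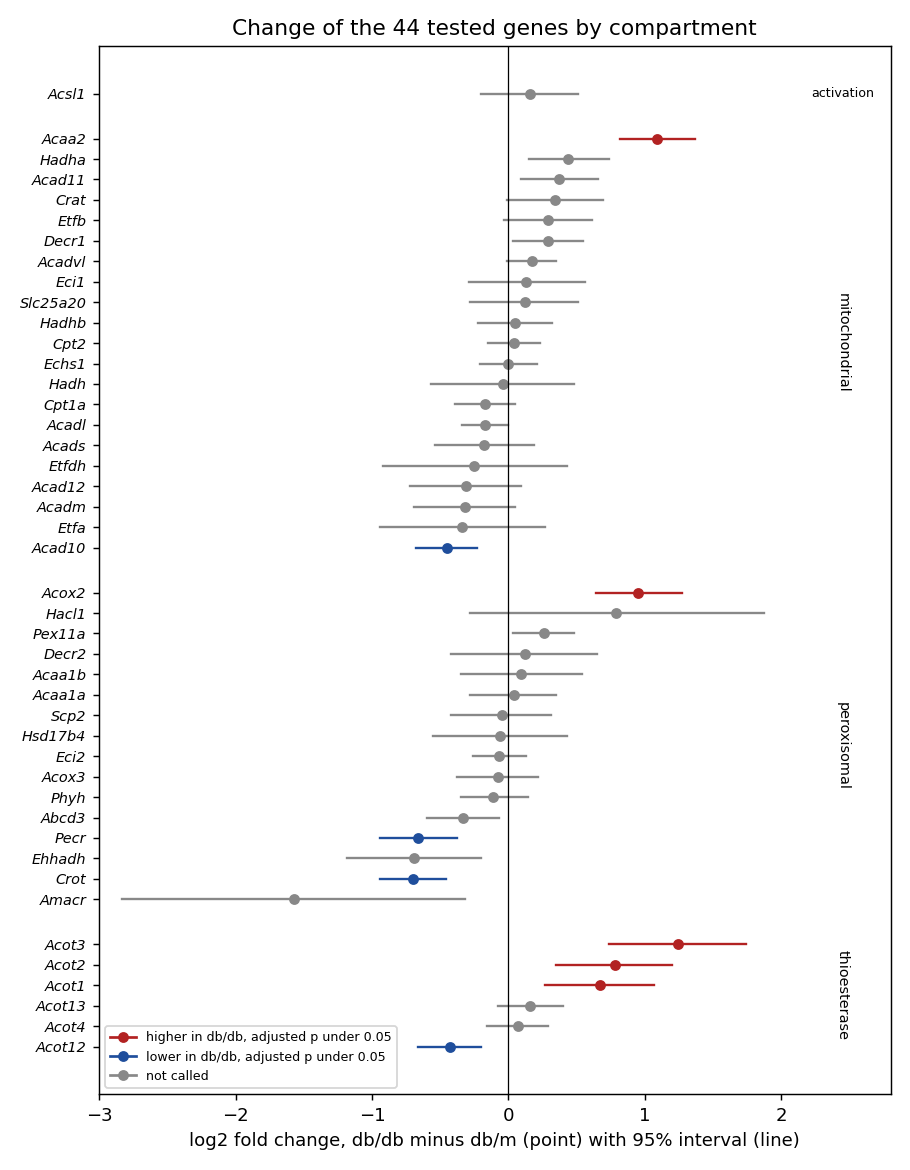
The horizontal axis gives the log2 fold change, db/db minus db/m, as a point with its 95% interval as a line, for each of the 44 tested genes by compartment. Coloured genes are the 5 called higher and 4 called lower; Amacr and Hacl1 have the widest intervals, and 4 of the 6 thioesterases are coloured.

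Libraries held 3256427 to 7627747 gene counts. Median Spearman correlation with the other libraries was under 0.93 for db/m replicate 8 and db/db replicates 1, 4 and 8, with db/db replicate 8 lowest at 0.896. Without these 4 libraries, 5 members were called higher and 7 lower, which added Acadm, Ehhadh and Amacr to the lower ones. Nothing in the sources used here gives a batch, but every db/db library has a higher library number than every db/m library, so a batch following that number cannot be told apart from the group. In bulk kidney tissue, fewer cells of a type and less RNA per cell cannot be told apart. Levels are in CPM, counts per 1000000 of the scaled library. Markers of proximal tubule segments S1 and S2 (17 genes) summed to 14641 to 19999 CPM in db/m, against 18277 to 25594 in db/db, with 3 called higher and 1 lower. Those of segment S3 (11 genes) lay at 3818 to 4603 and 2307 to 3179 CPM, with 6 called lower and 2 higher, and those of 13 male-biased kidney genes at 19309 to 31212 and 2194 to 6366 CPM, with 12 lower. Markers of the distal convoluted and connecting tubule (10 genes) summed to 2051 to 2844 CPM in db/m, against 3073 to 4740.3 in db/db, with 6 called higher. Those of intercalated cells (9 genes) ran from 195 to 273 and from 289 to 379.6 CPM, with 4 higher, and those of principal cells (9 genes) from 334 to 1094 and from 712 to 1759 CPM, with 4 higher and 1 lower. The sums of the S3, male-biased, distal and intercalated lists did not overlap between the groups, and none of the genes in these 6 lists was at 0. Slc7a13 and Cyp7b1 are on both the S3 and the male-biased list, so the sums of these lists are not separate readings. Podocyte markers (7 genes; 134 to 190.4 and 166 to 240.3 CPM) had 2 called higher, and of the endothelial and the fibroblast and mural markers 0 of 9 each were called. Over all tested genes, 3.91% were called higher and 3.49% lower. The part of these cell type and sex-biased markers in the results that follow was not tested.

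Acsl1, the long-chain acyl-CoA synthetase that makes fatty acids ready for oxidation or storage, was not called. In db/m its level was 91.4 CPM at the lowest, 124 at the median and 230 at the highest, and in db/db 98.8, 164 and 177. The db/m range enclosed the db/db range, and the highest value was that of db/m replicate 8, which was also the highest db/m library for 4 marker lists: adipocyte (1029 CPM), principal cell (1094), fibroblast and mural (500.1) and lymphocyte and plasma cell (323). In db/db, replicate 9 was highest for the adipocyte (692 CPM), principal cell (1759) and fibroblast and mural (446) lists. Its Acsl1 level was 164 CPM, the db/db median. The lymphocyte and plasma cell list was highest in db/db replicate 8 (38.3 CPM), with Acsl1 at 170 CPM. The part of these lists in the Acsl1 values was not tested. The log2 fold change of Acsl1 was 0.16 (SE 0.17; 95% interval -0.20 to 0.51; edgeR adjusted p = 0.65).

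The carnitine shuttle carries activated chains into the mitochondrial matrix, and 0 of its 4 tested genes were called. Cpt1a, the carnitine palmitoyltransferase of the outer membrane that controls entry, lay at 196 to 259.6 CPM in db/m (median 209) and 162 to 248 in db/db (median 201). Of the 9 db/db libraries, 4 were below every db/m library and the rest overlapped. Its log2 fold change was -0.17 (95% interval -0.39 to 0.05), so a fall of more than 0.39 on the log2 scale lay outside the interval. Cpt2, which remakes acyl-CoA on the matrix side, lay at 68.1 to 98.9 CPM (median 85.1) in db/m and 72.4 to 105 (median 84.9) in db/db. Its ranges almost coincided, with a log2 fold change of 0.04 and a 95% interval of -0.15 to 0.23. The translocase Slc25a20 lay at 12.7 to 40.2 CPM in db/m (median 23.6) and 15.5 to 32.2 in db/db (median 30.1), the db/db range falling inside the db/m range (log2 fold change 0.12, 95% interval -0.28 to 0.51). Crat, which moves acetyl groups between CoA and carnitine, lay at 41.9 to 54.2 CPM in db/m (median 47.5) and 39.9 to 97.9 in db/db (median 52.7). Its db/db range was the wider, with replicates 7 and 8 at 97.2 and 97.9 CPM, and its log2 fold change was 0.34 (95% interval -0.01 to 0.69; edgeR adjusted p = 0.252).

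The muscle isoform Cpt1b had 3 counts over the 8 db/m libraries and 0 over the 9 db/db libraries and could not be tested. In the deepest db/db library a count of 0 allows up to 0.38 CPM, taking 3 counts as the limit, which covers counting error only.

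Of the 7 acyl-CoA dehydrogenases, which take the first step of each cycle, only Acad10 was called. Acad10 lay at 43.9 to 59.6 CPM in db/m (median 51.1) and at 29.2 to 45.1 in db/db (median 37.1). All but 1 of the 9 db/db libraries were below the lowest db/m library, replicate 8. Acad10 had a log2 fold change of -0.45 (SE 0.11, edgeR adjusted p = 0.0113). The 4 dehydrogenases named for chain length did not pass the test: Acadvl (very long) was at 0.17 (95% interval -0.01 to 0.35), Acadl (long) at -0.17, Acadm (medium) at -0.32 and Acads (short) at -0.18. Acadm values spread unevenly, from 316 to 413 CPM in db/m but from 116 to 473 in db/db, with replicate 4 lowest and replicate 8 highest. Its edgeR adjusted p was 0.318 with all libraries and 0.0187 at a log2 fold change of -0.41 without the 4 libraries of low correlation. Acad11, which acts on hydroxylated fatty acids and is also placed in peroxisomes, was at 0.37 (edgeR adjusted p = 0.112), and Acad12 at -0.31.

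The electron transfer flavoprotein and its dehydrogenase take the electrons of these enzymes to the respiratory chain. None of the 3 genes was called: Etfb was at 0.29 (edgeR adjusted p = 0.297), Etfa at -0.34 and Etfdh at -0.25. Single libraries moved these values: Etfa was at -0.61 without db/db replicate 1 and at -0.20 without db/m replicate 8, and Etfdh at -0.59 and -0.02. The subunits of the flavoprotein had opposite signs, with 95% intervals of -0.03 to 0.61 for Etfb and -0.94 to 0.27 for Etfa. Etfa ran from 18.2 to 56.5 CPM within db/m and from 11.8 to 65.7 within db/db, so its spread within a group was larger than the difference between groups.

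Among the enzymes of the later steps, Acaa2, the thiolase that releases acetyl-CoA, was the 1 called gene of 5. In db/m it lay at 171 CPM at the lowest, 231 at the median and 263 at the highest, and in db/db at 366, 447 and 668. The groups did not overlap. Its log2 fold change was 1.09 (SE 0.13; 2.13-fold; edgeR adjusted p = 1.1e-05), and it stayed between 1.02 and 1.14 over all other fits, all of which called it.

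Hadha and Hadhb encode the 2 subunits of the mitochondrial trifunctional protein, which handles the later steps for long chains. The genes start head to head on chromosome 5, and their RefSeq promoter windows (300 bases, GRCm38.p6) share 228 bases. Hadha lay at 177 to 282 CPM in db/m (median 243) and 231 to 487 in db/db (median 307), with 5 of 9 db/db libraries above every db/m library. Its log2 fold change of 0.44 (SE 0.14) just missed the threshold (edgeR adjusted p = 0.0629), and passed it without db/db replicate 1 (0.50, edgeR adjusted p = 0.0282) and with DESeq2 (adjusted p = 0.0406). Hadhb was at 0.05 (95% interval -0.22 to 0.32), with 25.8 ± 4.84 CPM in db/m (SD, n = 8) and 26.7 ± 4.64 in db/db (SD, n = 9). The difference between the subunits was not tested. The hydratase Echs1 (121 ± 7.15 CPM in db/m against 121 ± 21.5 in db/db; SD) and the dehydrogenase Hadh (375 ± 129 and 364 ± 144 CPM) had log2 fold changes of -0.00 and -0.04. Hadh spread from 106 to 614 CPM within db/db, so only a large change could have been detected (95% interval -0.57 to 0.48). The auxiliary enzymes for unsaturated chains, the reductase Decr1 and the isomerase Eci1, were at 0.29 (edgeR adjusted p = 0.175) and 0.13 and were not called.

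The peroxisomal genes gave 1 higher and 2 lower calls among 16. Acox2, the oxidase of branched chains and bile acid precursors, lay at 17.8 to 22.9 CPM in db/m (median 19.0) and 21.7 to 52.2 in db/db (median 37.1). All db/db libraries but replicate 1 were above the highest db/m library. The log2 fold change of Acox2 was 0.95 (SE 0.15; 1.93-fold; edgeR adjusted p = 0.000264). The other peroxisomal oxidase on the list, Acox3, which acts on pristanoyl-CoA, was at -0.08 (95% interval -0.38 to 0.22).

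Crot, which makes carnitine esters of medium-chain products for export from the peroxisome, fell. It lay at 84.3 to 134 CPM in db/m (median 108) and 53.4 to 83.9 in db/db (median 68.5). The groups did not overlap, although the lowest db/m library, replicate 8, and the highest db/db library were close. The log2 fold change was -0.70 (SE 0.11, edgeR adjusted p = 0.000368). Pecr, a peroxisomal trans-enoyl-CoA reductase, lay at 678 to 1305 CPM in db/m (median 1037) and 487 to 899 in db/db (median 625). In db/m, replicate 8 was lowest at 678 CPM and the next library was at 958, above every db/db library. Pecr had a log2 fold change of -0.66 (SE 0.14, edgeR adjusted p = 0.00337).

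**Figure D2:**
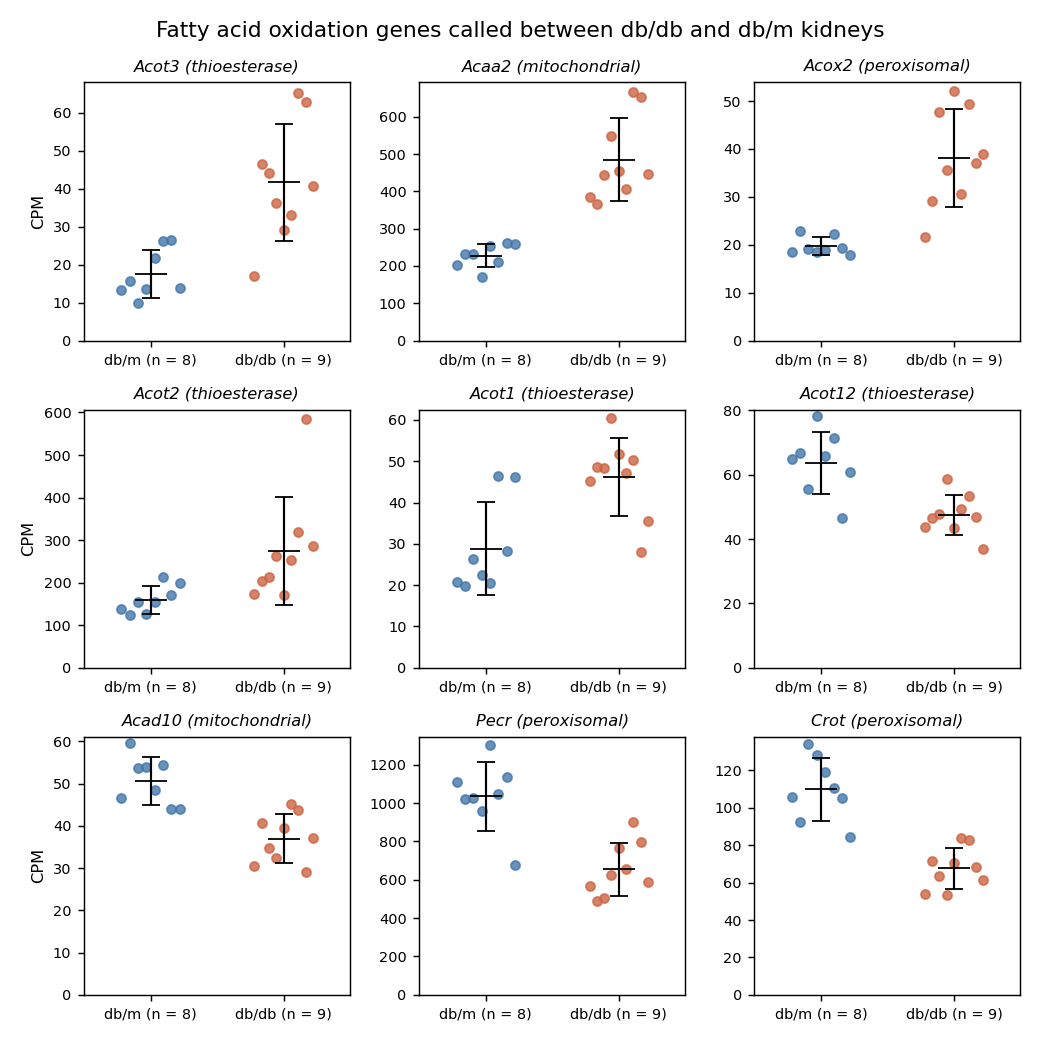
Each panel gives the CPM (vertical axis, from 0) of 1 called gene in the 8 db/m and 9 db/db libraries, with the mean and SD in black. Acaa2 and Crot show no overlap between the groups, and Acot2 in db/db has 1 library at 584 CPM, far above the others.

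The remaining peroxisomal members were not called. Abcd3, the membrane transporter for long and branched acyl-CoA, was at -0.33 (edgeR adjusted p = 0.126), and at -0.40 without db/db replicate 1, where it was called (edgeR adjusted p = 0.0234). Ehhadh, a bifunctional enzyme, was at -0.69 (SE 0.24, edgeR adjusted p = 0.0848). Its level was 11.8 ± 3.07 CPM in db/m (SD, n = 8) and 7.35 ± 3.28 in db/db (SD, n = 9). Without db/db replicate 8, Ehhadh was at -0.88 and was called (edgeR adjusted p = 0.011). Hsd17b4, a further bifunctional enzyme, was at -0.06 (95% interval -0.55 to 0.43). Pex11a, which takes part in peroxisome division, was at 0.26 (edgeR adjusted p = 0.167). The thiolases Acaa1a and Acaa1b were at 0.04 and 0.09 and Scp2, a thiolase and sterol carrier, at -0.05. The ends of Acaa1a and Acaa1b transcripts share an identical run of 176 bases within their last 500, so the split of reads between these copies is uncertain. Decr2 and Eci2, which act on unsaturated chains, were at 0.12 and -0.07. In the branched-chain pathway, the phytanoyl-CoA hydroxylase Phyh was at -0.11 and the lyase Hacl1 at 0.79 (SE 0.52), which was 0.25 without db/db replicate 1 and 1.09 without db/m replicate 8. The racemase Amacr had the largest difference of all members (log2 fold change -1.57, SE 0.60) but was not called (edgeR adjusted p = 0.128). Amacr ran from 5.79 to 107 CPM in db/m (median 18.6) and from 2.07 to 55.6 in db/db (median 6.75). Only db/db replicate 1 was above 10.3 CPM in its group, and without it the log2 fold change was -2.47 and was called (edgeR adjusted p = 0.00249).

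Cpt2 and Scp2 lie 6.09 and 6.23 Mb from Lepr on chromosome 4 in the GENCODE M21 annotation, closer to the mutated locus than any other member. Neither was called, with log2 fold changes of 0.04 and -0.05.

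Of the 6 thioesterases, 3 rose and 1 fell. Acot1 to Acot4 are neighbouring genes on chromosome 12 that encode similar enzymes for different compartments, and Acot12 and Acot13 lie on chromosome 13. The RefSeq windows around the starts of 5 of them are printed (GRCm38.p6, 250 bases before to 50 after the start, 5′ to 3′ along the gene), because 3 of these genes rose, 1 fell and Acot4, in the same cluster, did neither. Capitals mark matches to the PPAR response motif, 2 copies of AGGTCA in the same direction with 1 base between them, with at most 2 mismatches over its 12 fixed letters, searched on both strands.
Acot1, chr12:84009252-84009551, plus strand: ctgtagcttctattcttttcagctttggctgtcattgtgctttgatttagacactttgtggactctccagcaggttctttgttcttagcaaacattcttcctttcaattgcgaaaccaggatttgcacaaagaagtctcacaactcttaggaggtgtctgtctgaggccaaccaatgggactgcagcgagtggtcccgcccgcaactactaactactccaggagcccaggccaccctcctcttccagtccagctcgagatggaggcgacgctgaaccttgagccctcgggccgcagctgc
Acot2, chr12:83987611-83987910, plus strand: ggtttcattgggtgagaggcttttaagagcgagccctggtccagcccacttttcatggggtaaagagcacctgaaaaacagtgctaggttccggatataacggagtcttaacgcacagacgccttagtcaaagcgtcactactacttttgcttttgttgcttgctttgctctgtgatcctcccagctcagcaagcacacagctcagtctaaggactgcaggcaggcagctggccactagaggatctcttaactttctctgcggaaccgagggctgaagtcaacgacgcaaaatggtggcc
Acot3, chr12:84051894-84052193, plus strand: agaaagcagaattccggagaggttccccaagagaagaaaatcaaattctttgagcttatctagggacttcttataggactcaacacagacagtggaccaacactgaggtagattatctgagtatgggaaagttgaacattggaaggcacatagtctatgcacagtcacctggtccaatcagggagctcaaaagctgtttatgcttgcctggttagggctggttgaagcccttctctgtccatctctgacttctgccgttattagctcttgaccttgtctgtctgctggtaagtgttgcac
Acot4, chr12:84038129-84038428, plus strand: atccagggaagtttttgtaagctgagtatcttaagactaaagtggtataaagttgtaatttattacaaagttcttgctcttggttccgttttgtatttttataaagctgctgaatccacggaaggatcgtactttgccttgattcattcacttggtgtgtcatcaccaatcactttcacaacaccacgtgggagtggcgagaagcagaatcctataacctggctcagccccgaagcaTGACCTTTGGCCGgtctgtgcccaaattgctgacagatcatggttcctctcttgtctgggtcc
Acot12, chr13:91741271-91741570, plus strand: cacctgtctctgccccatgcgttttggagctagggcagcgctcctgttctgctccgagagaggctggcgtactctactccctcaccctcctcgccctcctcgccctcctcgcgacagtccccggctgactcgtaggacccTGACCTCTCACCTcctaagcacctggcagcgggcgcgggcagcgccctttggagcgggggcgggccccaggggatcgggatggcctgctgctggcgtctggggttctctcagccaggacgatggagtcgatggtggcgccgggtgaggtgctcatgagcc
A match was found before the start of Acot4 (13 bases upstream) and of Acot12 (110 bases upstream, 1 mismatch), and none in the windows of Acot1, Acot2 and Acot3. The motif occurred in 3.86% of 32851 windows of this length over all genes, and in 6 of the 42 windows of the 38 members with an entry. Of Acox2, Crot, Pecr and Acad10, the called members outside this family whose windows were searched, Acox2 had a match in 1 window, 9 bases after the start. These matches are letters only: they say nothing of binding, and a window without one does not speak of sites elsewhere.

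Acot3, a peroxisomal thioesterase, rose most. It lay at 9.93 to 26.4 CPM in db/m (median 14.8) and 17 to 65.3 in db/db (median 40.8). All db/db libraries but replicate 1 were above the highest db/m library. The log2 fold change was 1.24 (SE 0.24; 2.36-fold; edgeR adjusted p = 0.00194). Acot2, the mitochondrial member, lay at 123 to 213 CPM in db/m (median 155) and 171 to 584 in db/db (median 254), with 6 of 9 db/db libraries above every db/m library. Its log2 fold change of 0.78 (SE 0.21, edgeR adjusted p = 0.0218) was 0.55 without db/db replicate 8, the library at 584 CPM, and the call ended without db/m replicate 2 or 4 (edgeR adjusted p = 0.0508 and 0.0501). Acot1, the cytosolic member, lay at 19.7 to 46.4 CPM in db/m (median 24.4) and 28.0 to 60.4 in db/db (median 48.3), where again 6 of 9 db/db libraries were above every db/m library. In db/m, replicates 6 and 8 stood above the rest at 46.4 and 46.2 CPM. Its log2 fold change was 0.67 (SE 0.19, edgeR adjusted p = 0.0352). This call is the least secure of the 9: it ended in 11 of 17 fits that left out 1 library (any of replicates 1, 2, 3, 4, 5 and 7 of db/m and 2, 3, 4, 5 and 7 of db/db), with an edgeR adjusted p of up to 0.075.

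Acot4, also peroxisomal, lay at 41.4 to 57.5 CPM in db/m (median 52.3) and 43.1 to 65.9 in db/db (median 52), a log2 fold change of 0.07 with a 95% interval of -0.16 to 0.29. Acot12, a cytosolic acetyl-CoA hydrolase, fell. It lay at 46.5 to 78.2 CPM in db/m (median 65.3) and 36.8 to 58.8 in db/db (median 47.0), and 4 of 9 db/db libraries were below every db/m library. Acot12 had a log2 fold change of -0.43 (SE 0.11, edgeR adjusted p = 0.0171), and the call ended without db/m replicate 4 (edgeR adjusted p = 0.0545). Acot13, which works at the mitochondrial surface and in the matrix, was at 0.16 (95% interval -0.08 to 0.40). Within the last 500 bases of their annotated transcripts, Acot1 and Acot2 share an identical run of at most 10 bases and Acot1 and Acot3 of at most 18. Acot3 and Acot4 are overlapped on the same strand by the predicted gene Gm49366, so reads there could have been set aside as ambiguous. Other members have overlaps too: of the called ones, Crot (Gm27941) and Acot12 (Gm27656) on the same strand. Pecr has one on the opposite strand (D230017M19Rik), which could matter because the strand setting was not given. Acaa2, Acox2, Acad10, Acot1 and Acot2 have none listed.

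Genes around the pathway, from lists of regulators, targets and neighbours, were counted in the same fit; their levels are means ± SD over the 8 db/m and then the 9 db/db libraries, followed by the log2 fold change. Called shares of these lists stand beside 7.39% over all tested genes. Of 17 tested PPAR genes and partner transcription factors, 0 were higher and 1 lower (5.88% called, median log2 fold change 0.04). The lower one was the corepressor Ncor1 (549 ± 48.7 CPM in db/m against 446 ± 33 in db/db; log2 fold change -0.30, edgeR adjusted p = 0.0258), and Rxrb (0.27) and Lpin1 (0.28) came next by p without passing. Of 20 tested PPARα targets outside the members, 5 were higher and 3 lower (40.0% called), with a median of 0.13. Their smallest p-values belonged to genes that went opposite ways: the fatty acid hydroxylase Cyp4a14 (18.1 ± 18.9 to 405 ± 114 CPM; 4.49), the fatty acid uptake protein Cd36 (77.2 ± 10.2 to 20.1 ± 7.89 CPM; -1.93) and the peroxisomal and reticular acyl-CoA synthetase Slc27a2, also on the S3 marker list (-0.63, SE 0.09).

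Of 19 other acyl-CoA dehydrogenases and matrix enzymes, 1 was higher and 2 were lower (15.8% called, median -0.11). Ivd, the isovaleryl-CoA dehydrogenase of leucine breakdown, went from 211 ± 21.6 to 107 ± 11 CPM (-0.99, SE 0.09), the thiolase Acat1 from 361 ± 88.3 to 195 ± 77.4 CPM (-0.88, SE 0.20), and the mitochondrial acetyl-CoA synthetase Acss1 from 126 ± 25.3 to 195 ± 41.4 CPM (0.62, SE 0.14). Of 31 tested peroxisome biogenesis and membrane genes, 0 were higher and 1 was lower (3.23% called, median 0.05). Agps, which makes ether lipids, went from 75.5 ± 24.0 to 25.6 ± 10.9 CPM (-1.56, SE 0.24). Dao (0.49) and Ddo (-0.31), oxidases of D-amino acids, did not pass. Of 15 tested other acyl-CoA synthetases and thioesterases, 0 were higher and 2 were lower (13.3% called, median 0.18). Besides Slc27a2 this was Nudt19, a peroxisomal CoA hydrolase of kidney (531 ± 104 to 253 ± 86.0 CPM; -1.07, SE 0.18), while Acot7 was at 0.48 (edgeR adjusted p = 0.0699).

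The members also varied among themselves within each group. Of the 9 db/db libraries, replicate 8 held the highest or lowest value for 25 of 44 members (56.8%, against 49.9% of all tested genes) and replicate 1 for 24 (54.5%, against 37.3%). Of the 8 db/m libraries, replicate 8 did so for 23 (52.3%, against 37.9%). Replicate 1 was the highest db/db library for 15 members, among them Amacr, Hacl1, Etfdh, Etfa, Hadh, Decr2 and Hsd17b4, which are named here after their values were seen. In db/m, Amacr was highest in replicate 4 and the other 6 of these genes in replicate 8 (Hadh at 539.8 CPM, Hacl1 at 11.3). In log2 CPM, the SD within db/m was 1.40 for Amacr and 1.31 for Hacl1 but 0.09 for Acadvl and Echs1. The cause of this shared spread was not tested.

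**Figure D3:**
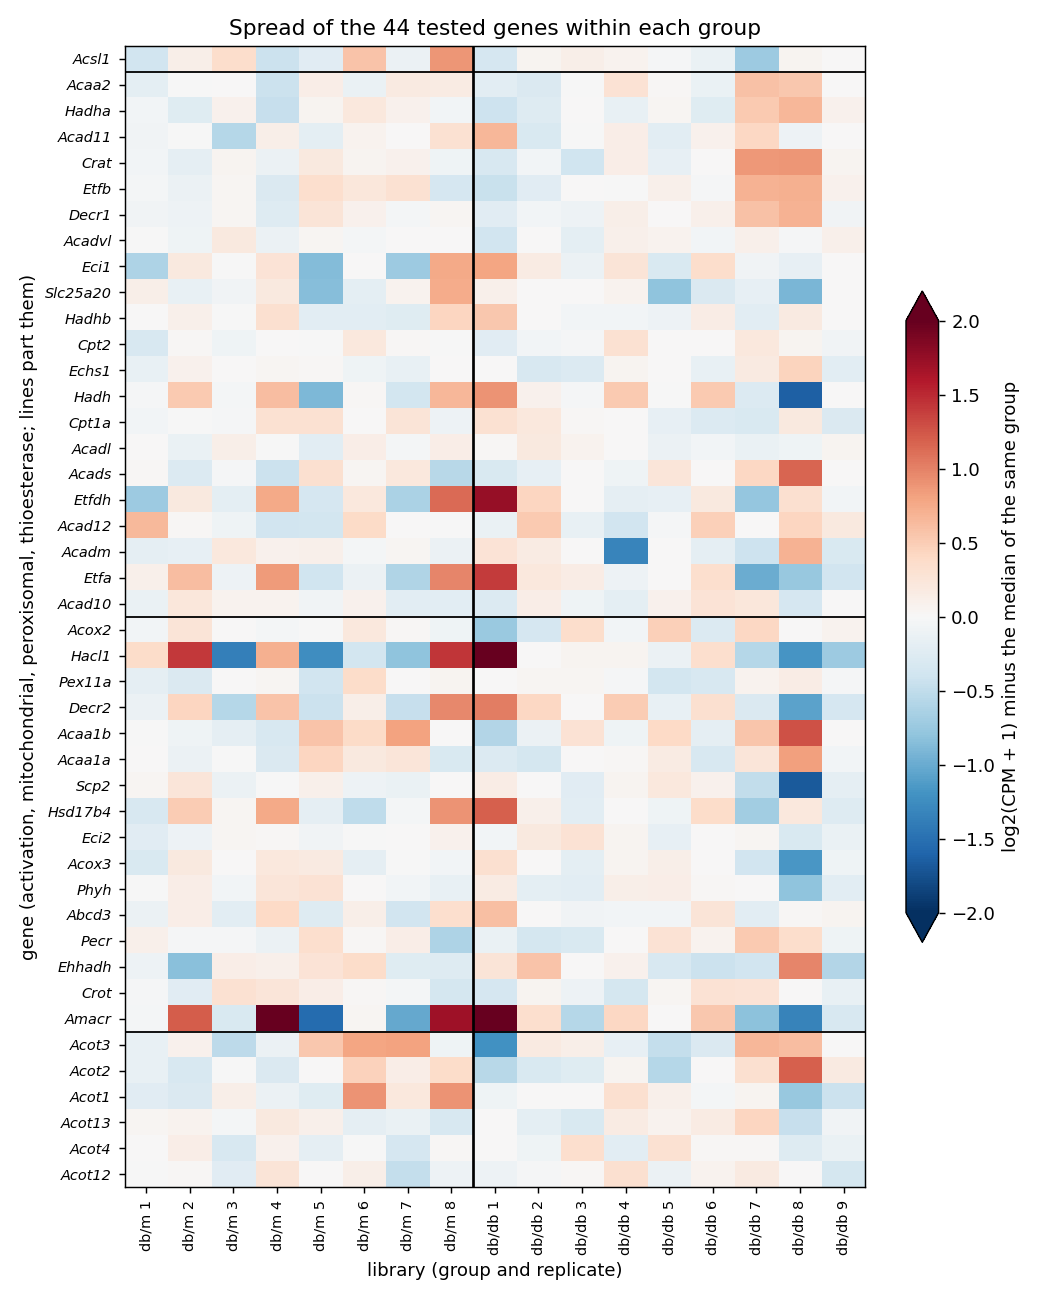
Rows are the 44 tested genes and columns the 17 libraries. Colour gives log2(CPM + 1) minus the median of the same group, so differences between the groups are removed. In db/db replicate 1, Amacr and Hacl1 are far above their group, and in db/db replicate 8 Hadh and Scp2 are far below it.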

How the data were processed

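Raw read counts per gene were deposited by the authors for 17 kidney libraries of a 3′ end kit. Reads were aligned with STAR 2.7.3a and counted with HTSeq 2.16.2, per the submitters' processing notes, which list build GRCh38 although the identifiers are mouse genes; the mouse build, annotation, strand setting and duplicate handling were not given in the sources used here. Counts in no gene (19.344% of all) and ambiguous ones (0.533%) were left out. Reads with several alignments show 0, so genes with near-identical ends may be undercounted.

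Genes were filtered with edgeR 4.0.16 (filterByExpr, minimum count 10), scaled by TMM and tested by its quasi-likelihood test under R 4.3.3, with Benjamini-Hochberg adjustment over 12131 genes and a threshold of 0.05. The script was tested on simulated data. CPM are counts per 1000000 of the TMM-scaled library, and log2 CPM used a prior count of 2; SE was derived from the F statistic. Every pair of libraries in a group differed beyond sampling noise (chi-square over its degrees of freedom at least 3.83), so none counts as a repeat of another.

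All 45 members are accounted for; values by library or as lowest, median and highest are given for called members and the carnitine shuttle, and the 3 smallest p-values are named from each pathway list. The members and lists were chosen with earlier results of these data known. Alternatives were other scalings and filters, DESeq2 1.42.0, limma-voom 3.58.1, a replicate block, each library left out, an exact permutation test of single genes and, added after seeing the data, the 4 libraries of low correlation left out. Gene names, promoter windows (RefSeq, GRCm38.p6) and transcript ends (GENCODE M21) came from reference tables. One item of the strain description is not reported here.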

Additional observations from a re-analysis of the deposited data

Results flagged for a closer look

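Among 88 groups (44 members in db/m and in db/db), 11 held a library whose gap to the next passed Dixon's 95% critical value. The gap was taken in log2 CPM, as a share of the group's range on that scale. Levels beside the gap shares are in CPM. Chance flags about 1 in 20 groups. The share flagged over all tested genes was not taken, so the count is not shown to be particular to the members. Of the 11, 7 were db/db replicate 8, the library with the lowest correlation with the others. This library was the highest or lowest of its group for 49.9% of all tested genes. It was high for Acads (501 CPM against 298 in the next library, gap share 0.512), Acaa1a (172 against 114, 0.503) and Acot2 (584 against 318, 0.495). It was low for Hadh (106 against 272, 0.535), Acox3 (118 against 204, 0.531), Scp2 (19.3 against 45.2, 0.635) and Phyh (248 against 373, 0.601). In db/db replicate 1, Etfdh (42 against 16.3 CPM, 0.514), Hacl1 (31.0 against 8.97, 0.508) and Amacr (55.6 against 10.3, 0.532) were high. In db/m replicate 8, Pecr was low (678 against 958 CPM, 0.527). Acot2 and Pecr are called members, and both stayed called without the library in question.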

How the results depend on the processing

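Of the 9 called members, Acaa2, Crot, Acox2, Pecr and Acot3 kept their call in every other fit, and none of the 9 changed direction. Of 35 uncalled members, 5 (Hadha, Ehhadh, Abcd3, Amacr and Acadm) were called in some other fit, leaving aside the exact permutation test, whose p is not adjusted. No pairing of samples by shared replicate number was seen, and nothing in the sources used here gives one. Correlations of same-numbered deviations ran from -0.454 to 0.212, and 0 of 8 libraries matched its own number best. A weak pairing could escape this check. A fit with the replicate number as a block called 435 genes in place of 897, and 4 members higher and 2 lower, with 0 mitochondrial and 0 thioesterase members lower. It ended the calls of Acot1 (0.78, adjusted p = 0.0906), Acad10 (-0.46, 0.0539) and Acot12 (-0.38, 0.112) in edgeR. Library totals and DESeq2 each called 2 mitochondrial members higher in place of 1. Without the 4 libraries of low correlation, 7 members were lower (2 mitochondrial and 4 peroxisomal). With 1 library left out, calls ranged from 3 to 6 members higher and 3 to 6 lower; 1 to 2 mitochondrial members were higher, 2 to 4 peroxisomal lower, 1 to 3 thioesterases higher and 0 to 1 lower. The lowest counts of higher members came without db/m replicate 2 or 4, and the range over all genes was 637 to 1237. Members that changed sign in any fit were uncalled, with reported log2 fold changes within 0.12 of 0. Without the 4 libraries Acaa1a was at -0.12, Acaa1b at -0.0174 and Scp2 at 0.0133. Echs1 was at 0.002 with RLE, 0.0019 with DESeq2, 0.0027 with no filter, 0.0047 with the replicate block and 0.0266 with library totals. With 1 library left out, ranges were -0.0941 to 0.12 for Acaa1a, -0.10 to 0.21 for Acaa1b, -0.13 to 0.012 for Acox3, -0.0041 to 0.0741 for Cpt2, -0.0323 to 0.28 for Decr2, -0.0714 to 0.036 for Echs1, -0.15 to 0.0806 for Hadh, -0.0143 to 0.12 for Hadhb, -0.25 to 0.0728 for Hsd17b4 and -0.11 to 0.0622 for Scp2. No scaling moved the median of all genes by over 0.1. The cause of these changes was not tested. Counts were lowest for Cpt1b (3 over the db/m and 0 over the db/db libraries), Hacl1 (191 and 341), Acad12 (336 and 281) and Ehhadh (456 and 291). By library, 3 counts are worth 0.38 to 0.929 CPM. Cpt1b lay below the level of 3 counts in every library, and Hacl1 lay at that level in db/m replicate 3 (0.784 CPM). The part of depth in the spread of Hacl1, Acad12 and Ehhadh was not tested.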
